A study of Mus musculus with 10 samples.

Results

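The primitive endoderm lineage genes are a group of 10 genes that mark or build the first endoderm of the mouse embryo, namely Gata6, Gata4, Sox17, Sox7, Foxa2, Hnf4a, Pdgfra, Lama1, Lamb1 and Sparc. They were chosen by name, and each was found in the table by its Ensembl identifier among the 20206 genes measured by RNA sequencing. All 10 had a mean normalized value of at least 10 over the lines and so were among the 14354 genes tested. The cells were undifferentiated embryonic stem cell (ESC) lines, labelled as wild-type, male and C57Bl/6, that had been derived from blastocysts of mothers mated at 7 to 9 weeks of age. The mothers of 5 lines were fed a low protein diet with 9% casein (LPD lines 1, 4, 6, 20 and 40) and those of the other 5 a normal protein diet with 18% casein (NPD lines 8, 15, 21, 36 and 51), in both cases up to embryonic day 3.5. Per the study's methods the lines came from different mothers, were derived on fibroblast feeder cells and were grown without feeders before RNA was taken, so each line was taken as 1 replicate of the maternal diet and not of a treatment of the cells. The question put to these genes was whether the maternal diet left a difference in the endoderm side of the ESC transcriptome.

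Primitive endoderm forms from the inner cell mass of the blastocyst, beside the epiblast, and gives rise to the visceral and parietal endoderm of the yolk sacs. Fibroblast growth factor 4 from the neighbouring epiblast precursors, acting through FGF receptors and the MAP kinase pathway, raises GATA6 and lowers NANOG, after which Gata4, Sox17 and Sox7 come on and the cells lay down a basement membrane rich in laminin, collagen IV and SPARC. ESCs descend from the epiblast side, but ESC cultures are known to hold some cells that express primitive endoderm genes. In a bulk measurement of this kind more cells of a type and more RNA per cell cannot be told apart.

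Values are normalized estimated counts as the authors deposited them, and diet differences are given as log2 fold changes, LPD against NPD, on log2(value + 1), which understates the change of low genes. Depth was 20343468 to 23175748 read equivalents (summed values over what 1 read was worth) in the NPD lines and 5855067 to 24228203 in the LPD lines, with LPD lines 4, 6 and 40 the shallowest. At these depths the members with the lowest values rest on few reads, and Hnf4a rests on 0.8 read equivalents in LPD line 6 and Foxa2 on 0 in NPD line 15. Pluripotency markers were high in all lines, with Pou5f1 between 18250 and 30420. Ttr, Afp and Apoa1, products of later visceral endoderm, had means of 2.03, 2.04 and 1.59 and did not reach the limit for testing. The other 22 of 25 further extraembryonic endoderm genes did reach it, among them Cubn, Dab2 and Apoe, with means of 1196, 824.5 and 32101. The Y-linked gene Ddx3y was at 7.70 in NPD line 15 and 174 in LPD line 4, and between 1110 and 1493 in the others. The median log2 deviation of 334 X-linked genes was 0.487 in NPD line 15 and 0.001 in LPD line 4. In the others it ran from -0.055 to 0.028. The line labelled NPD 15 thus goes against its label of male.

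GATA6 and GATA4 are zinc finger transcription factors, GATA6 acting at the head of the primitive endoderm programme. Gata6 (ENSMUSG00000005836, GRCm38 chromosome 18, 11052064 to 11085635) had values of 445.8, 176.1, 109.1, 309.4 and 566.4 in LPD lines 1, 4, 6, 20 and 40, and 199.8, 39.4, 301.7, 569.9 and 496.4 in NPD lines 8, 15, 21, 36 and 51. High and low lines were found under both diets, and the 2 means were almost the same, 321.4 ± 188 in LPD and 321.5 ± 216 in NPD (SD, n = 5). Gata4 (ENSMUSG00000021944, chromosome 14, 63198922 to 63271692) had values of 979.5, 640.2, 158.9, 410.8 and 940.9 in the LPD lines and 260.1, 67.6, 527.0, 1079 and 597.5 in the NPD lines, in the same order of lines. The lowest LPD line for Gata4 lay below 4 of the NPD lines and the highest NPD line above all LPD lines.

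SOX17 and SOX7 are related SoxF transcription factors that follow the GATA factors. Sox17 (ENSMUSG00000025902, chromosome 1, 4490931 to 4497354) had values of 366.8, 144.8, 62.3, 153.8 and 407.6 in the LPD lines and 76.0, 11.6, 190.3, 217.3 and 262.3 in the NPD lines. LPD lines 1 and 40 lay above all NPD lines and the remaining 3 within their range. Sox7 (ENSMUSG00000063060, chromosome 14, 63943673 to 63950732) had values of 278.9, 181.0, 71.0, 224.1 and 348.1 in the LPD lines and 74.9, 66.8, 186.2, 331.4 and 274.5 in the NPD lines. Its lowest lines were NPD 15, LPD 6 and NPD 8, which held the 3 lowest values of Gata4 and of Sox17 as well.

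FOXA2 is a forkhead factor and HNF4A a nuclear receptor, both used in visceral endoderm and again in liver. Foxa2 (ENSMUSG00000037025, chromosome 2, 148042877 to 148046969) had values of 136.8, 55.3, 31.1, 36.8 and 56.2 in the LPD lines and 20.2, 0.0, 50.7, 63.9 and 36.5 in the NPD lines. LPD line 1 stood above the rest, and Foxa2 was listed at 0 in NPD line 15. Hnf4a (ENSMUSG00000017950, chromosome 2, 163506808 to 163572910) had values of 117.0, 39.7, 1.07, 6.92 and 41.1 in the LPD lines and 12.6, 17.5, 24.3, 105.0 and 23.6 in the NPD lines. It was high in 1 line of each diet, LPD 1 and NPD 36, and its lowest values were both in LPD lines.

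PDGFRA is the receptor tyrosine kinase for PDGF-A that marks primitive endoderm at the cell surface. Pdgfra (ENSMUSG00000029231, chromosome 5, 75152292 to 75198215) had values of 432.1, 266.7, 98.0, 330.3 and 529.9 in the LPD lines and 207.8, 160.1, 257.3, 514.2 and 403.8 in the NPD lines. It spanned 5.40-fold from LPD line 6 to LPD line 40, so that 1 diet held both its lowest and its highest value.

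Lama1 and Lamb1 encode the alpha and beta chains of laminin-111, the first laminin of the embryo, and Sparc encodes a secreted glycoprotein that binds collagen and is made in large amounts by parietal endoderm. Lama1 (ENSMUSG00000032796, chromosome 17, 67697259 to 67822647) had values of 7178, 4676, 1068, 2915 and 5752 in the LPD lines and 1596, 518.4, 4354, 3787 and 3690 in the NPD lines. LPD lines 1, 4 and 40 lay above all NPD lines, while LPD line 6 lay below all but NPD line 15. Lamb1 (ENSMUSG00000002900, chromosome 12, 31265234 to 31329644) had values of 6757, 4515, 2472, 3544 and 4118 in the LPD lines and 2289, 1850, 3602, 4261 and 3203 in the NPD lines. Sparc (ENSMUSG00000018593, chromosome 11, 55394500 to 55423183) had values of 20403, 13855, 11035, 13571 and 18770 in the LPD lines and 10563, 10367, 14570, 15516 and 12885 in the NPD lines. For both genes 2 LPD lines lay above all NPD lines, and the diets overlapped.

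**Figure D1:**
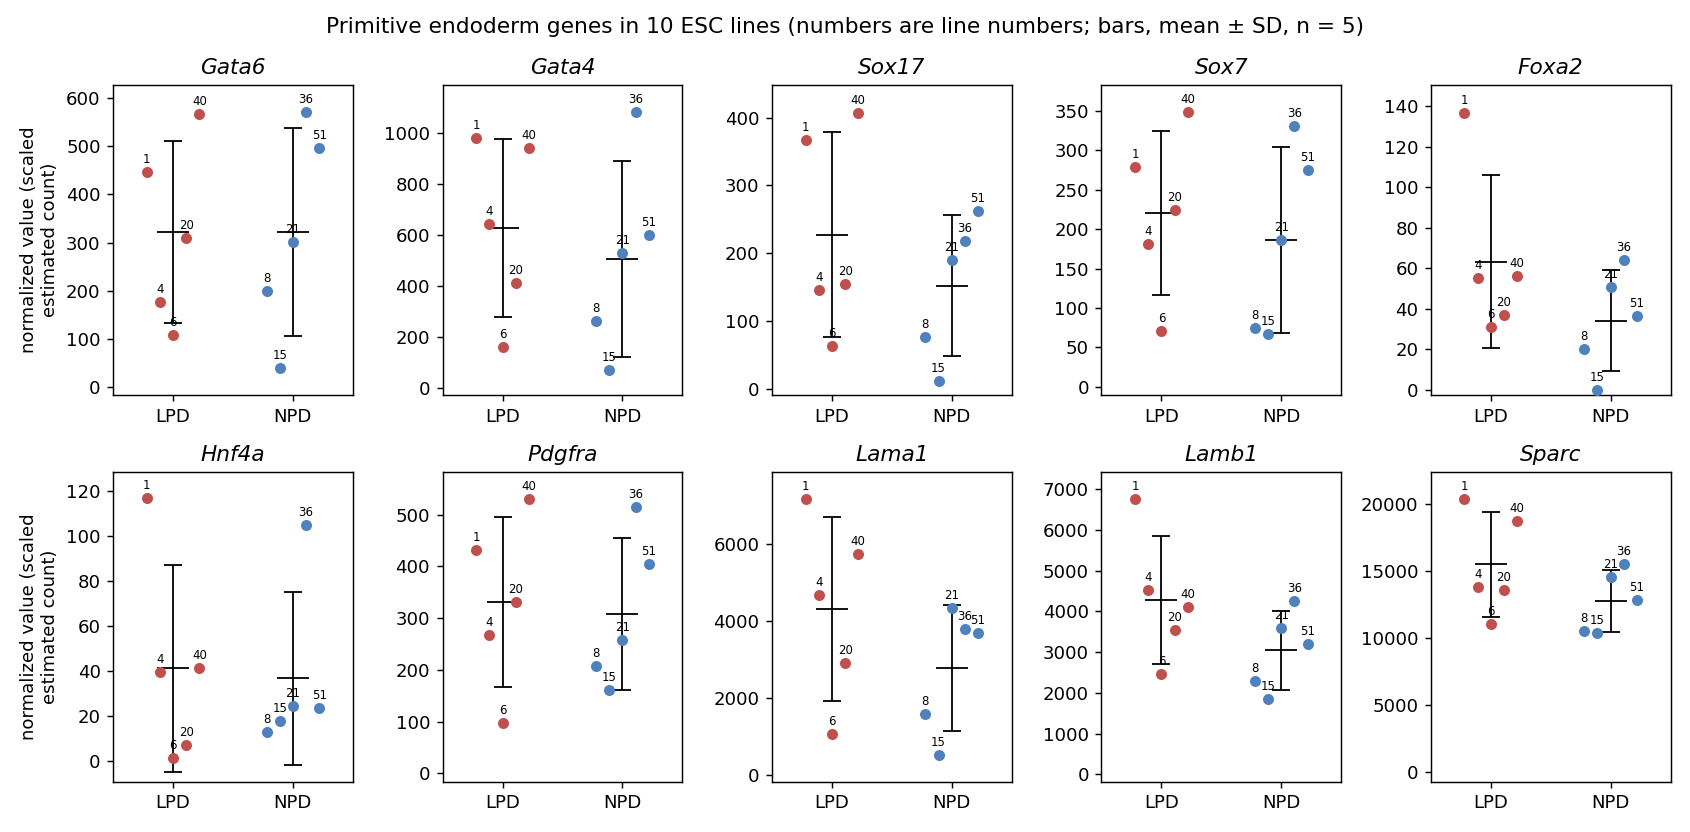
Normalized value (vertical axis, scaled estimated count, a separate scale for each gene) of the 10 primitive endoderm genes in 5 LPD and 5 NPD ESC lines; points are lines with their numbers, and bars are mean ± SD (n = 5). The diets overlap in all 10 genes, and NPD lines 8 and 15 and LPD line 6 lie at the bottom of most panels.

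RefSeq promoter windows on GRCm38.p6, from 250 bases before to 50 bases after a transcript start, were at hand for 5 of the 10 members, with 8 windows in all. Windows of Hnf4a, Foxa2 and Lamb1 are shown because they hold the letters that GATA factors, SOX factors and the GC-box factors of the SP family are known to prefer. Capitals mark the letters searched on both strands, which were GATAA (read as TTATC on the other strand) for GATA factors, ACAAT (read as ATTGT) for SOX factors and GGGCGG (read as CCGCCC) for GC boxes. No match overlaps another in these windows.
Hnf4a, chr2:163506607-163506906, plus strand: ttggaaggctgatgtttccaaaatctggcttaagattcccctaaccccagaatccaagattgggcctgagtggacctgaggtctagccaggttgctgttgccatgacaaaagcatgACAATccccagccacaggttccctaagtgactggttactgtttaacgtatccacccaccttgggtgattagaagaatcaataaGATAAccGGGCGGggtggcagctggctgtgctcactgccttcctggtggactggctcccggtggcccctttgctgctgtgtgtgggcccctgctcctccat
Foxa2, chr2:148045415-148045714, minus strand: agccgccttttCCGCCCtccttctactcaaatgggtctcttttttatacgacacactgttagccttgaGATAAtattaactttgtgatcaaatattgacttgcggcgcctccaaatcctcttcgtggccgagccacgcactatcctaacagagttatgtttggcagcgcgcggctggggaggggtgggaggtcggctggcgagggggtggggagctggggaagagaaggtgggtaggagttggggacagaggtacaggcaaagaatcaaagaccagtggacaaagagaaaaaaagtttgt
Lamb1, chr12:31265043-31265342, plus strand: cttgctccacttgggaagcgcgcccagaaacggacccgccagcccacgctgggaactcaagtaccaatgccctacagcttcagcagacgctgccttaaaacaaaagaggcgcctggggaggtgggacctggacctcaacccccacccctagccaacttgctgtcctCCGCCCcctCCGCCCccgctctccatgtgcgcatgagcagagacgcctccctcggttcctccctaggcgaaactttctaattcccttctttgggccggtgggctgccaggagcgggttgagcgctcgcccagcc
Counted from the start base at 0, ACAAT begins at -134, GATAA at -51 and GGGCGG at -44 in the Hnf4a window. GATAA was found in 2 of the 8 windows, against 25.4% of the 32851 windows of the RefSeq table, ACAAT in 1 of 8 against 31.0%, and GGGCGG in 5 of 8 against 35.7%. Foxa2 and Hnf4a have more than 1 window each, and every Foxa2 window held GGGCGG, so the windows are not separate genes. The windows of Pdgfra and Sparc held none of the 3, and a match or its lack is a description of these letters alone.

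To set the genes against each other, the normalized value was divided by the length of the longest annotated transcript. Sparc was the highest, with 6154 ± 1459 per kb (SD, n = 10 lines), followed by Lamb1 with 633.0 ± 242 and Lama1 with 373.0 ± 220. Among the regulators Gata4 came first, with 166.5 ± 104 per kb, then Gata6 with 84.9 ± 50.5, Sox7 with 61.7 ± 32.3 and Sox17 with 58.4 ± 39.7. Pdgfra had 46.8 ± 21.6, Foxa2 22.9 ± 17.1 and Hnf4a 8.91 ± 9.21 per kb. The order Sparc, Lamb1, Lama1, Gata4, Gata6 held in each of the 10 lines. Gata6 and Sox7, Sox7 and Sox17, Sox17 and Pdgfra, and Foxa2 and Hnf4a did not differ by more than 1 SD of their difference over the lines.

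The members differed more between lines of the same diet than most genes at their level. From the lowest to the highest line Gata4 spanned 16.0-fold, Gata6 14.5-fold, Lama1 13.8-fold and Sox17 35.1-fold, whereas Lamb1 spanned 3.65-fold and Sparc 1.97-fold. The lowest of these values were all in NPD line 15, and without it the spans were 6.79-fold for Gata4, 5.23-fold for Gata6, 6.72-fold for Lama1, 6.54-fold for Sox17, 2.95-fold for Lamb1 and 1.93-fold for Sparc. The within-diet SD of log2 values was 1.28 for Gata6, 1.32 for Gata4 and 1.20 for Lama1, against a median of 0.27 over all genes tested. Among genes whose mean lay within 2-fold of their own, Lama1 ranked at percentile 99.9 of this SD, Gata4 at 99.7 and Sparc, the least variable member, at 91.2. Without NPD line 15 the SD was 0.86 for Gata6, 0.99 for Gata4 and 0.93 for Lama1, against a median of 0.27, and at their own level these ranked at percentiles 98.4, 99.3 and 99.9. Foxa2 moved from percentile 98.3 to 80.9. Diet accounted for 0.045% of the variance of Pdgfra and 21.7% of that of Lamb1, the lowest and highest of the members. The median was 7.15% for the members and 5.83% for all genes tested.

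The same lines were high or low for nearly all members. In LPD line 1, LPD line 40 and NPD line 36 all 10 members lay above their median over the lines, by a median of 0.86, 0.75 and 0.63 on the log2 scale. In NPD line 15, LPD line 6 and NPD line 8 all 10 lay below it, with median deviations of -2.22, -1.49 and -0.97. NPD line 15 held the lowest value of 8 members and LPD line 6 that of the other 2, Hnf4a and Pdgfra. In the remaining 4 lines the median deviation lay between -0.08 and 0.10.

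**Figure D2:**
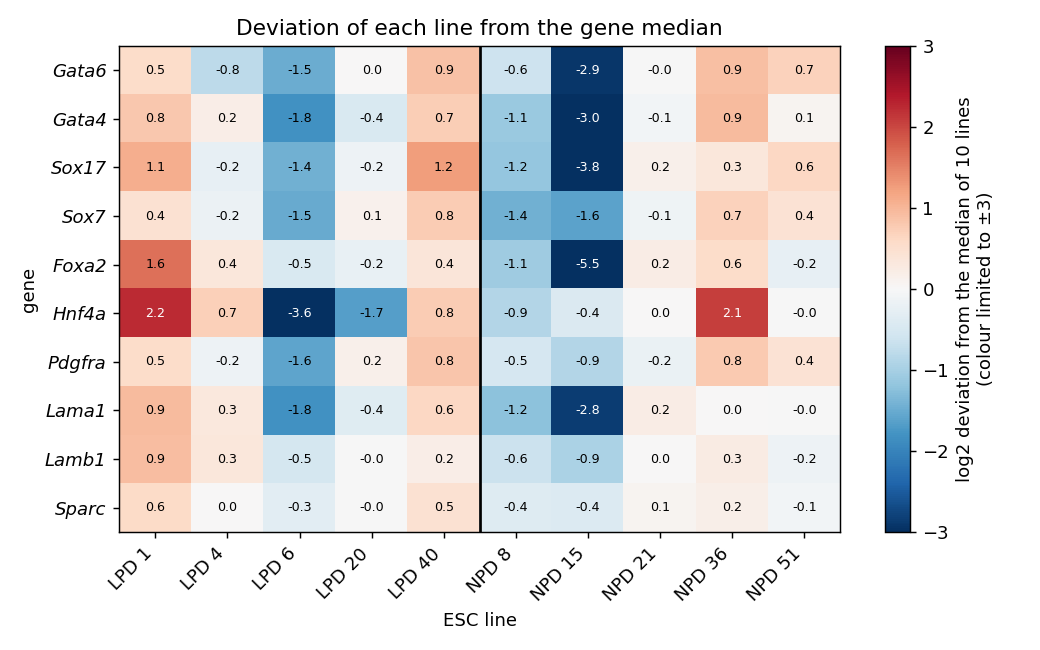
Log2 deviation of each ESC line (horizontal axis) from the median of the 10 lines for each member gene (vertical axis); numbers give the deviation, colours are limited to ±3, and the vertical line separates LPD from NPD. Columns for LPD 6, NPD 8 and NPD 15 are low and those for LPD 1, LPD 40 and NPD 36 high for all 10 genes.

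Summed fibroblast markers were highest in the 3 lines that were lowest for the members. The summed normalized value over the 12 markers was 6105 in NPD line 15, 3772 in LPD line 6 and 2312 in NPD line 8. Sums in the other 7 lines ran from 523 to 1256, with 1256 in NPD line 36, one of the lines high for the members. Over the diets the sum ran from 523 to 3772 in LPD and from 577 to 6105 in NPD, and 0 of the 9 markers tested differed between diets at an unadjusted p under 0.05 (limma). Of these 9 markers 2 had a higher and 7 a lower fitted mean in LPD, with a median log2 fold change of -0.88. Col1a1, a collagen of fibroblasts, was lowest in LPD line 40 with 131 and highest in NPD line 15 with 2709, and Twist1 was highest in LPD line 20 with 485.2, while Lum was listed at 0 in 7 of the 10 lines. The part of fibroblast RNA in the order of the lines was not tested. Keratins Krt8 and Krt18, which mark extraembryonic epithelia including trophectoderm, were highest in LPD line 6, at 4577 and 3053. The summed value of the 6 trophectoderm markers listed was 3039 in that line. Over the lines this sum ran from 1859 in LPD line 20 to 4341 in NPD line 8. Of these markers Krt7 and Gata3 were highest in LPD line 6, at 638.4 and 264.6, and the rest in other lines.

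Members were therefore compared pair by pair over the 10 lines, using log2(value + 1). All 45 pairs correlated positively, with a median Pearson r of 0.84 (lowest 0.35, highest 0.96) and a median Spearman rho of 0.84. With 100000 permutations and adjustment over the 45 pairs, 40 pairs were under 0.05 by Pearson and 42 by Spearman. After the mean of each diet was subtracted the median r was 0.86, and 41 pairs were under 0.05. Without the 2 lines farthest from the median of the first gene of each pair the median r was 0.76, and without LPD line 4 and NPD line 15 it was 0.87. All 45 pairs stayed positive in each case. For scale, the median r of a member with all other genes tested lay between -0.01 and 0.004, and the share of those genes that reached the member's own median with the other members was 0.404% for Sox17, the lowest, and 4.16% for Hnf4a, the highest. Lines share their library and depth across genes, and genes are not independent replicates.

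By Pearson r over all 10 lines the closest pairs joined regulators with each other and with laminin. By rho the closest were Foxa2 with Sparc and Sox7 with Pdgfra, both at 0.98. Without LPD line 4 and NPD line 15 the closest by r was Gata6 with Pdgfra, at 0.99. Gata4 and Lama1 had r = 0.96 and rho = 0.85, with permutation p = 1.0e-04 for r and 0.00297 for rho (adjusted 7.0e-04 and 0.00703), and r = 0.85 without NPD line 15 and LPD line 6, the lines farthest from the median. Gata6 and Sox17 had r = 0.96 and rho = 0.89, with permutation p = 1.7e-04 and 0.00147 (adjusted 7.65e-04 and 0.00382), and r = 0.82 without the same 2 lines. Sox7 and Pdgfra had r = 0.94 and rho = 0.98, with permutation p = 1e-05, the smallest that 100000 permutations can give, and 2.0e-05 (adjusted 4.5e-04 and 9.0e-04), and r = 0.92 without the 2 farthest lines. At the other end Foxa2 and Hnf4a, the lowest members, had r = 0.35 but rho = 0.85, with permutation p = 0.298 and 0.00323 (adjusted 0.298 and 0.00727). Their r rose to 0.69 without NPD line 15 and LPD line 1, and to 0.75 without LPD line 4 and NPD line 15, so the low r rests on few lines. Gata6 and Lamb1 depended on the extreme lines in the other direction, with r = 0.73 and rho = 0.54 over 10 lines (permutation p = 0.0168 and 0.113, adjusted 0.0216 and 0.113) and r = 0.36 without NPD line 15 and LPD line 6.

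**Figure D3:**
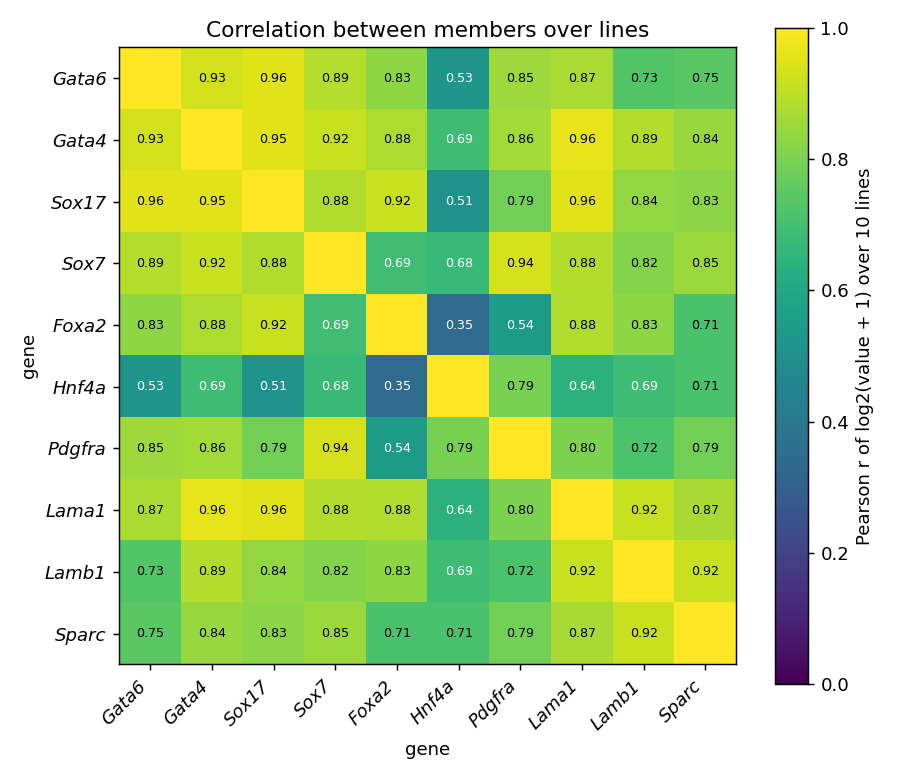
Pearson r of log2(value + 1) over 10 ESC lines for each pair of the 10 member genes (both axes), with r printed in each cell and by colour. All 45 pairs are positive, with the weakest cells in the Hnf4a row and between Foxa2 and Pdgfra.

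Genes outside the group whose pattern was most like that of 4 members were ranked by r over the 10 lines among 11684 genes with a mean of at least 50. Nearest to Gata4 was Hkdc1, a hexokinase-like enzyme of glucose phosphorylation, with r = 0.99 and values from 6.54 to 262, followed by Cubn (0.98), Col4a2 (0.98), P4ha2 (0.98) and Soat2 (0.97). Cubn encodes the endocytic receptor cubilin, Col4a2 a chain of basement membrane collagen, and P4ha2 a hydroxylase that collagen needs. Nearest to Gata6 were Foxq1 (0.97), Pdzd3 (0.96), Col13a1 (0.95), Tcf23 (0.95) and Bend5 (0.94). Nearest to Sox17 were Pdzd3 (0.98), Bmp6 (0.98), Foxq1 (0.97), Tcf23 (0.97) and Runx1 (0.97), of which Bmp6 is a secreted growth factor and Foxq1, Tcf23 and Runx1 are transcription factors. Nearest to Sparc were Ctsc (0.97), Lgmn (0.96), Fut8 (0.95), Fam213a (0.95) and Hopx (0.95), with the lysosomal proteases cathepsin C and legumain first. These ranks are a description over 10 lines that share their libraries.

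Other genes of the extraembryonic endoderm were set against Gata4 in the same way, in a family of 39 relations that included FGF pathway and pluripotency genes and was chosen after the values had been seen. Of 22 extraembryonic endoderm genes tested, 15 had a positive r and 12 were positive at an adjusted permutation p under 0.05, and 0 were negative at that level. Among the 12 were Cubn and Amn, the subunits of one endocytic receptor, with its adaptor Dab2, the collagens Col4a1 and Col4a2, the laminin chain Lamc1, the proteoglycan Srgn, the receptor Pth1r, the transcription factor Snai1, the plasminogen activator Plat and the sterol esterifying enzyme Soat2. Their r ran from 0.72 for Plat, a value that 2.53% of all genes tested reached with Gata4, to 0.98 for Cubn, which 0.0139% reached. Dab2 is an example, with 1672, 851.7, 114.4, 633.2 and 843.5 in LPD lines 1, 4, 6, 20 and 40 and 306.2, 102.9, 760.7, 2165 and 795.4 in NPD lines 8, 15, 21, 36 and 51. Its r with Gata4 was 0.96 and its rho 0.99 (permutation p = 1e-05 for both, the smallest the 100000 permutations can give, adjusted 2.23e-04 and 3.9e-04), and r was 0.92 without NPD line 15 and LPD line 6. Lamc1, the third chain of laminin-111, had r = 0.74 and rho = 0.65 (permutation p = 0.0125 and 0.0487, adjusted 0.0375 and 0.119), with r = 0.61 without the same lines. Lrp2, a further endocytic receptor gene of the list, was not among the 12. It had r = 0.43 and rho = 0.43 (permutation p = 0.221 and 0.218, adjusted 0.307 and 0.357), with r = -0.30 without the same lines.

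Genes of the list that did not follow Gata4 included Nid1 and Apoe, with r of -0.18 and -0.27, and the keratins Krt8, Krt18 and Krt19, with r of -0.59, -0.66 and -0.66. Thbd, which encodes thrombomodulin, had the most negative r, -0.72. For these 6 the adjusted permutation p lay between 0.0598 and 0.696, and without NPD line 15 and LPD line 6 the r of Thbd was -0.04. Of the 9 genes of the FGF signal only 1 had a positive r. Their median r was -0.50, against 0.00 for Gata4 with all other genes tested. At an adjusted permutation p under 0.05, 1 was positive, the MAP kinase gene Mapk3, and 1 negative, the phosphatase gene Ptpn11. Mapk3 had r = 0.75 and rho = 0.76 (permutation p = 0.0104 and 0.0146, adjusted 0.0370 and 0.0475), an r that 1.87% of all genes tested reached, and r = 0.83 without NPD line 15 and LPD line 6. Ptpn11 had r = -0.74 and rho = -0.68 (permutation p = 0.0124 and 0.0343, adjusted 0.0375 and 0.0893), an r that 2.22% of all genes were at or below, and r = -0.70 without them. Of the 8 pluripotency markers 0 passed in either direction at an adjusted permutation p under 0.05 by Pearson or Spearman. Esrrb came closest, with r = -0.50 and rho = -0.70 (permutation p = 0.141 and 0.0313, adjusted 0.227 and 0.0871), and r = -0.80 without NPD line 15 and LPD line 6. Nanog, whose product opposes GATA6 in the embryo, had r = -0.10 and rho = -0.18 (permutation p = 0.785 and 0.631, adjusted 0.805 and 0.724), with 0.17 without the same 2 lines.

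**Figure D4:**
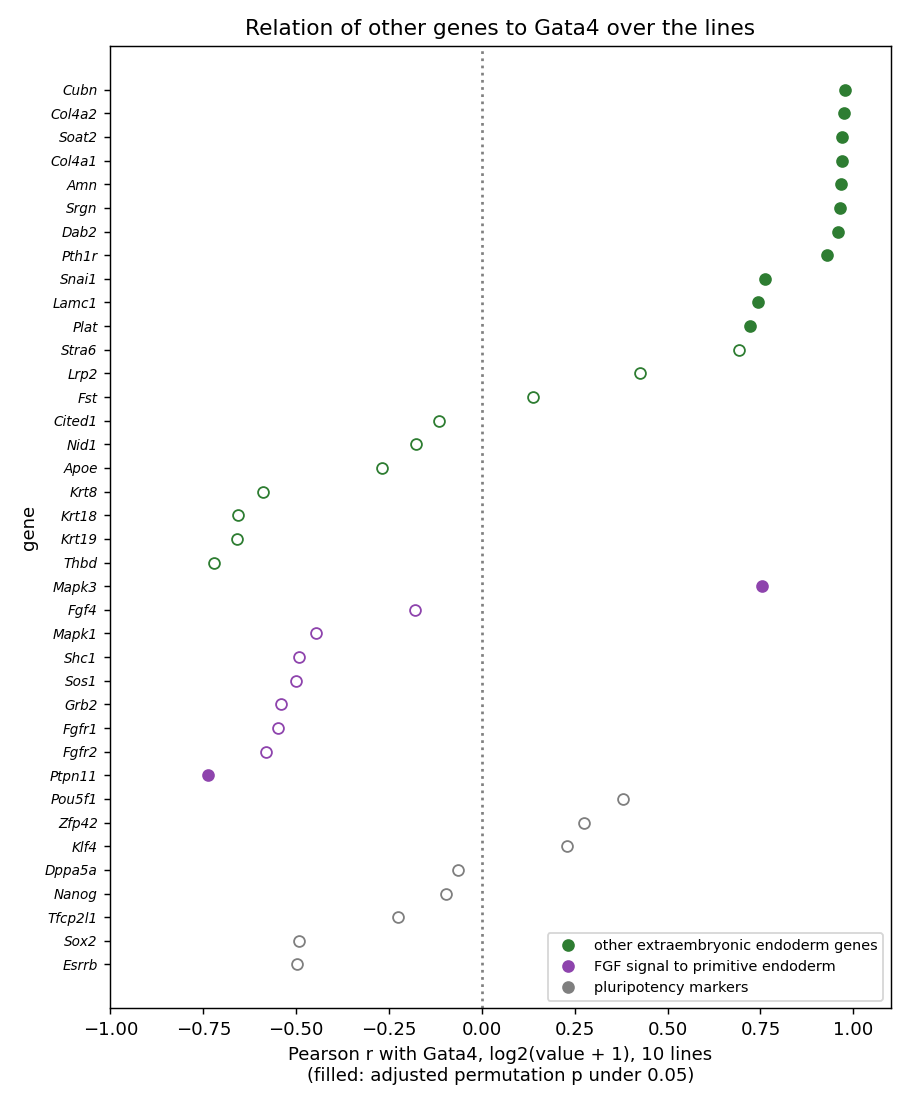
Pearson r with Gata4 over 10 ESC lines (horizontal axis) for 38 of the 39 genes (vertical axis) of 3 lists, coloured by list; filled points have an adjusted permutation p under 0.05. Of the 21 other extraembryonic endoderm genes drawn 11 are filled and positive, while 0 of the 8 pluripotency markers are filled.

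Against this spread between lines, the maternal diet was compared last. Of the 10 members 9 had a higher fitted mean in LPD and 1, Hnf4a, a lower one, where 50.5% of all genes tested were higher in LPD, and the median log2 fold change was 0.41 for the members and 0.00 for all genes. The members move together over the lines, so their shared sign is not 10 separate observations, and without NPD line 15 only 6 members were higher in LPD. The fibroblast markers leaned the other way, with 7 of 9 lower in LPD and a median of -0.88, and their part in the members' difference was not tested. No member passed the test. At an adjusted p under 0.1 limma called 0 of the 10 members and 0 of all genes (0.0%), and at an unadjusted p under 0.05 it called 0 of the 10, where it called 2.84% of all genes higher and 2.18% lower in LPD, 5.02% in all. The diets overlapped in all 10 members, where they did not overlap in 1.02% of all genes tested. For these comparisons an exact permutation test of 5 lines against 5 allows no p under 0.00794.

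Among the transcription factors the log2 fold change of Foxa2 was 1.53 (standard error 0.95, 95% confidence interval -0.52 to 3.58, exact permutation test, two-sided, p = 0.230), and it was 0.46 without NPD line 15, where Foxa2 was listed at 0. Sox17 had 0.87 (standard error 0.77, interval -0.79 to 2.53, exact permutation p = 0.429), or 0.11 without NPD line 15. Gata4 had 0.53 (interval -0.92 to 1.99, exact permutation p = 0.556) and Gata6 0.23 (interval -1.19 to 1.64, exact permutation p = 0.833), which turned to -0.06 and -0.41 without NPD line 15. Sox7 had 0.34 (interval -0.75 to 1.43, exact permutation p = 0.611), and 0.04 without that line. Hnf4a had -0.47 (interval -2.51 to 1.58, exact permutation p = 0.706), which turned to 0.36 without LPD line 6. Without logarithm its mean was higher in LPD, 41.1 ± 46.2 against 36.6 ± 38.5 in NPD (SD, n = 5). The intervals leave room for differences above 2-fold in either direction for Hnf4a and Gata6.

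Pdgfra was closest to no difference, with a log2 fold change of 0.03 (standard error 0.43, interval -0.89 to 0.95, exact permutation p = 0.913), and from -0.19 to 0.42 with 1 line left out. Of the matrix genes Lamb1 and Sparc had the smallest standard errors of the 10 members. Lamb1 had 0.48 (standard error 0.26, interval -0.09 to 1.05, exact permutation p = 0.167), Sparc 0.26 (standard error 0.17, interval -0.11 to 0.64, exact permutation p = 0.246) and Lama1 0.71 (standard error 0.60, interval -0.60 to 2.03, exact permutation p = 0.357), which was 0.20 without NPD line 15 and 1.15 without LPD line 6. Without LPD line 6 Lamb1 and Sparc reached unadjusted limma p of 0.0197 and 0.0385, with log2 fold changes of 0.66 and 0.38. Without LPD line 1 they had 0.30 and 0.16 (unadjusted limma p of 0.246 and 0.366), and without NPD line 15 0.32 and 0.19 (0.232 and 0.306), with adjusted limma p of at least 0.885 in every setting tried. Without LPD line 4 and NPD line 15, the lines that did not match the others for Ddx3y, Gata4, Gata6 and Pdgfra turned to -0.14, -0.25 and -0.14.

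**Figure D5:**
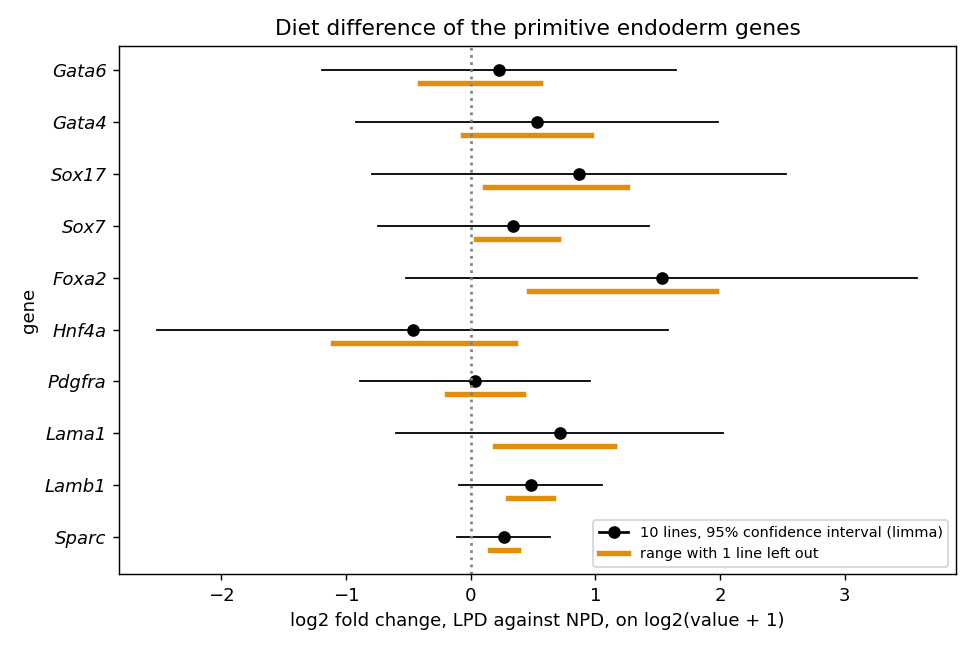
Log2 fold change, LPD against NPD, on log2(value + 1) (horizontal axis) for the 10 member genes (vertical axis); black points and lines are the estimate and 95% confidence interval from limma over 10 lines, and orange bars the range with 1 line left out. All 10 intervals cross 0, and the orange bars of Gata6, Gata4, Hnf4a and Pdgfra cross it too.

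In the wider extraembryonic endoderm list 19 of 22 genes tested had a higher fitted mean in LPD, against 50.5% of all genes, with a median log2 fold change of 0.30. These genes include many that follow Gata4 over the lines. At an unadjusted p under 0.05 limma called 1 of the 22 higher, a share near the 2.84% of all genes. It was Fst, the activin antagonist follistatin, with 107.6 ± 30.7 in LPD and 56.9 ± 9.28 in NPD (SD, n = 5), a log2 fold change of 0.87 (exact permutation p = 0.0238, adjusted limma p = 0.573). Apoe, the lipid carrier, had 35284 ± 5013 in LPD and 28918 ± 4597 in NPD (exact permutation p = 0.0794), and the diets overlapped. Stra6, a retinol transporter, had 31.0 ± 15.2 and 30.9 ± 14.9. Cited1, a transcriptional cofactor, had 47.2 ± 9.44 in LPD and 55.6 ± 16.1 in NPD (exact permutation p = 0.413). Of the FGF genes 1 had a higher and 8 a lower fitted mean in LPD, where 50.5% of all genes were higher, and 0 of 9 were at an unadjusted limma p under 0.05. Fgf4, the ligand, had 3782 ± 654 in LPD and 4516 ± 878 in NPD (exact permutation p = 0.167), and Fgfr2, a receptor of primitive endoderm, 264.2 ± 35.5 and 330.3 ± 175 (exact permutation p = 0.587).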

How the data were processed

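RNA sequencing of 10 ESC lines was used, 5 LPD and 5 NPD, grouped by the labels, with each line as 1 replicate. Per the study's methods the authors trimmed adaptors, kept reads in which at least 90% of bases had a quality above 20, quantified GRCm38 transcripts of Ensembl 88 with Salmon and tested transcripts with sleuth, for which the submitters' notes give version 0.30.0. The authors deposited 1 table, whose unit is a signal per gene and line, namely estimated counts that the authors scaled with DESeq2 going by the table's name. How transcripts were summed to genes is not given in the sources used here. Its 20206 genes were matched by identifier to GENCODE M21 (GRCm38), 19891 of them.

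Depth in read equivalents is a line's total divided by the value of 1 read, taken from low values. In genes with 1 transcript at least 93.1% of low values were whole multiples (tolerance 0.15), but over all genes 70.0% to 76.3%, so no count model was used. Genes with a mean of at least 10 were tested on log2(value + 1) with limma 3.58.1 in R 4.3.3, with a mean-variance trend, no covariate and Benjamini-Hochberg adjustment. Members were also tested by exact permutation over 252 assignments. On values simulated for the diet comparison over 14354 genes, 78.5% of 200 changed genes were called, with 23 unchanged ones. The changes put in were log2 fold changes of 1, -1, 2 or -2, so the share holds for changes of that size. The changed genes were drawn from all genes tested, each with its own within-diet SD, whose median was 0.27. The members had a median SD of 1.24, so this share is not the chance of a call for a member. Permutation tests used scipy 1.17.1 in Python 3.11.15, tables pandas 2.3.3 and numpy 2.4.6, and plots matplotlib 3.10.9.

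The members and lists were chosen with earlier results of these data known. All members are named. From the lists up to 4 genes are named, those with the largest and smallest mean and the smallest p in each direction, except where genes were named after their values were seen (the relations with Gata4, the fibroblast, keratin and late endoderm genes). For Gata6, Gata4, Sox17 and Sparc the 5 nearest genes are named. Alternatives were other pseudocounts, filters, scalings, limma settings, depth as a covariate, thinning to the shallowest line and lines left out. Chosen after seeing the data were leaving out LPD lines 4, 6 and 40, leaving out the 3 lines with the highest fibroblast sums, the correlations without LPD line 4 and NPD line 15 and after thinning, and the spread of the members without NPD line 15. Rhox5 and Hnf4g, which were listed, were not analysed here, and 1 gene of the lists, which the counts include, is not reported by name.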

Additional observations from a re-analysis of the deposited data

Results flagged for a closer look

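Within a diet, 2 of 20 sets of 5 normalized values, taken without logarithm, held a line far from the others by Dixon's criterion for 5 values (0.71). For normally distributed values chance gives about 1 in 20. The lines flagged depend on the scale. On the log2 scale Foxa2 deviated from its median by 1.64 in LPD line 1 and by -5.47 in NPD line 15. Foxa2 was 136.8 in LPD line 1, with 56.2 in the next line, a gap of 0.763 of the range. Hnf4a was 105.0 in NPD line 36, with 24.3 in the next line, a gap of 0.873 of the range. Both are regulators of visceral endoderm and liver, and both values stand on more than 100 read equivalents, 179.7 and 144.7. In both lines all 10 members lay above their median over the lines.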

How the results depend on the processing

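No member passed adjustment in any of the 248 alternatives of a member's log2 fold change, of which 227 kept the direction and 21 turned it. No paired analysis was possible because the line numbers of the diets are not shared. Pdgfra turned to -0.0029 with lines rescaled to the same total, -0.0532 with array weights, -0.0221 with thinning and -0.144 without LPD line 4 and NPD line 15. Gata6 turned to -0.0906 with array weights, and to -0.2487 without LPD line 4 and NPD line 15, where Gata4 turned to -0.1379. Without LPD line 6, NPD line 8 and NPD line 15, the lines with the highest fibroblast sums and also the lowest members, Gata6 was -0.3612 and Sox7 -0.0359. Without the shallow LPD lines 4, 6 and 40 Hnf4a was 0.1374. The cause was not tested in any of these.

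With 1 line left out, the log2 fold change ran from -0.4057 to 0.5556 for Gata6, -0.0641 to 0.9618 for Gata4, -1.1028 to 0.3556 for Hnf4a and -0.1879 to 0.4177 for Pdgfra, and stayed above 0 for the other 6 members. The count of members higher in LPD ran from 6 (without NPD line 15) to 10 (without LPD line 6), and of members at an unadjusted limma p under 0.05 from 0 to 2 (without LPD line 6), with 1, without NPD line 36. Over all genes the count at an adjusted p under 0.1 was 0, and 721 were at an unadjusted p under 0.05. It was 1 with array weights, 1 with thinning, 1 without LPD line 6, NPD line 8 and NPD line 15, and 6 without LPD lines 4, 6 and 40. With 1 line left out it ran from 0 to 40 (without LPD line 40), with 0 members among the calls in every setting. Of the genes at an unadjusted p under 0.05, 56.6% were higher in LPD, against 40.2% with rescaling to the same total and 46.2% with no filter.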

Other observations

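Relatives of the members in the same gene families gave a few further values. Of 6 PDGF ligands and receptors tested, 1 was higher in LPD at an unadjusted limma p under 0.05 and 0 lower, against 2.84% and 2.18% of all genes tested. This was Pdgfa, the ligand of PDGFRA, with 1218 ± 167 in LPD and 971.8 ± 115 in NPD (SD, n = 5), a log2 fold change of 0.32 (exact permutation p = 0.0159, adjusted limma p = 0.852), while the diets overlapped. Of 9 laminin chains tested 6 had a higher and 3 a lower fitted mean in LPD, and 1 was lower at an unadjusted limma p under 0.05 (2.18% of all genes), Lamb3, with 15.3 ± 24.3 in LPD and 30.3 ± 15.8 in NPD (exact permutation p = 0.0714, adjusted limma p = 0.952), although LPD line 1 held its highest value, 58.5.

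In the GATA family (5 tested), the SoxF family (2), the Foxa and Hnf families (5), the pluripotency markers (8) and the trophectoderm markers (5), 0 genes were at an unadjusted limma p under 0.05. Sox18, the third SoxF gene, had a mean of 5.14 and Gata5 one of 4.22, both under the limit for testing. Of 4 definitive endoderm and mesoderm markers tested 1 had a higher and 3 a lower fitted mean in LPD. At an unadjusted limma p under 0.05, 1 was lower (2.18% of all genes). It was Cxcr4, with 14.3 ± 8.17 against 27.4 ± 9.11 (exact permutation p = 0.0397, adjusted limma p = 0.952). Of the 8 markers listed, Eomes had the largest mean, 322.5, with 245.0 to 411.7 over the lines, and Cer1 the smallest, 1.07.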
